A study of Drosophila melanogaster with 6 samples.

Results

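HMR peaks were examined on chromosome 4 and in the pericentromeric parts of 3 autosomal arms of Drosophila melanogaster. The windows were all of chromosome 4, 2L from 22000000 to its assembled end, 3L from 22900000 to its assembled end, and 3R from its start to 4200000, in dm6 coordinates. A peak was a member when its whole interval lay in a window. The rule used position alone, though it was set with earlier results of these data known. Of the 3405 peaks in the lists, 241 were members, 136 of the 1981 induced and 105 of the 1424 uninduced peaks. The cells were SL2 (S2) cells, a line from late embryos, stably transfected with FLAG-HA-HMR under the copper-inducible pMT promoter and selected with hygromycin. The methods also name Myc-LHR as a transgene, while the labels name FLAG-HA-HMR alone. Cells of both conditions carried the construct. The induced condition was 250 µM CuSO4 for 20 to 24 h (2 HMR ChIP and 2 input libraries), and the uninduced condition had no copper (1 HMR ChIP and 1 input library). There is 1 peak list per condition, and the condition of each list was taken from how the list is named, which is an inference. Every peak is 200 bp wide and has a position but no height, and the read depth under it is not known. With 1 list per condition there was no replicate error and no test, and intervals are 95% intervals for counting error only (Wilson for shares, exact Poisson for densities). Since the copper treatment, the transgene level and the count of libraries all differ between the conditions, their parts in any difference cannot be told apart.

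HMR (Hybrid male rescue) is a chromatin protein that contributes to hybrid lethality between D. melanogaster and D. simulans. It acts with LHR (Lethal hybrid rescue), a partner of the heterochromatin protein HP1a, and is known from centromeric regions, telomeres and insulator sites. Chromosome 4, the dot chromosome, is a small autosome largely packed as heterochromatin whose genes are nevertheless expressed, while pericentromeric heterochromatin is rich in transposable elements and holds few, often long genes. Some of these genes, light among them, need a heterochromatic surrounding for normal expression.

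The reference sequences of 9 peaks are examples that each hold a match, and they do not stand for the members as a whole. CGATA, for one, was present in 42.6% of all induced members (34.6 to 51.0). Capitals mark matches on either strand to the motif named before each set. A first pair, both shared peaks far from any gene on 3L, held repeated copies of TGCATAC, here in capitals. They lie at chr3L:28091247-28091446, 18781 bp from the assembled end of the arm, with 3 copies, and at chr3L:26139546-26139745 with 4 copies.
3L array near the assembled end: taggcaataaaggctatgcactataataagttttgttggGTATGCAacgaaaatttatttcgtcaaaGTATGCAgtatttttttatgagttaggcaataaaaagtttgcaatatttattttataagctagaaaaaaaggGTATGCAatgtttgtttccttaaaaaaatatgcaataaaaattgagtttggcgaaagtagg
3L array: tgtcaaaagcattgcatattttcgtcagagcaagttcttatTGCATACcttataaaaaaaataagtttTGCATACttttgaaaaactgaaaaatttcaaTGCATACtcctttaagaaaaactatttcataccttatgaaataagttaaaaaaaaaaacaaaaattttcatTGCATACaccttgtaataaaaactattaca

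The next sequences are the parts of promoter peaks in front of the transcription start site (TSS), read in the direction of the gene, with CGATA in capitals. CGATA is the core recognised by the insulator protein BEAF-32, and TATCGATA is the DNA replication-related element (DRE), which holds CGATA on both strands and so counts as a pair of matches. They belong to shared peaks of RpL15 (chr3L:27267070-27267254, plus strand), vtd (chr3L:27136341-27136524, plus), PlexA (chr4:1027203-1027402, minus) and PIP4K (chr4:1196849-1197008, minus), and to the induced-only peak of Marf1 (chr2L:22354091-22354290, plus), which had 7 matches. The Marf1 peak lay in an intron, in front of a TSS inside the gene and not at the start of the gene.
RpL15: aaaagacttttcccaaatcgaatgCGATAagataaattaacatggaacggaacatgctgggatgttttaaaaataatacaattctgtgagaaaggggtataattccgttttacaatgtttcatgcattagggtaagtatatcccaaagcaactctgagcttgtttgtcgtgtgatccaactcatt
vtd: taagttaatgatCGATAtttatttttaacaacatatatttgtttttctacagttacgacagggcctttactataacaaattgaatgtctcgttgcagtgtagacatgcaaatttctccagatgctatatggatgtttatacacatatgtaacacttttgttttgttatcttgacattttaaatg
PlexA: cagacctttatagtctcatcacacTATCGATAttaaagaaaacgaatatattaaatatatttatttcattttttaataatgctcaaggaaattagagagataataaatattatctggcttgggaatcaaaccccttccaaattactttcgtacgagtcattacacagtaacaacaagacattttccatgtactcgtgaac
PIP4K: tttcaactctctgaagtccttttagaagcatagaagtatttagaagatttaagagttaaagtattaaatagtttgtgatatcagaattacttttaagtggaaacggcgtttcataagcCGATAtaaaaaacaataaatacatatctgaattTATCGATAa
Marf1: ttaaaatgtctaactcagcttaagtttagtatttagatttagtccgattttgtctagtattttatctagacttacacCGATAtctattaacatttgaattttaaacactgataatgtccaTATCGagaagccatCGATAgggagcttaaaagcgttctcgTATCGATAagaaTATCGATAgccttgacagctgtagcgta

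The last sequences come from induced-only peaks away from promoters. They are a peak in an intron of Snap25 with 6 CGATA matches in capitals (chr3L:24293361-24293560) and the peak in the telomeric element TART-C (chr4:1288853-1289052) with 2 adjoining CGATA matches, both given on the plus strand.
Snap25 intron: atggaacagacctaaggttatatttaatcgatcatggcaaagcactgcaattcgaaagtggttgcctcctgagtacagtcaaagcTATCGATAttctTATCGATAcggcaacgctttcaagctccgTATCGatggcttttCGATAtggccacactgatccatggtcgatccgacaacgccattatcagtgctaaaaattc
TART-C: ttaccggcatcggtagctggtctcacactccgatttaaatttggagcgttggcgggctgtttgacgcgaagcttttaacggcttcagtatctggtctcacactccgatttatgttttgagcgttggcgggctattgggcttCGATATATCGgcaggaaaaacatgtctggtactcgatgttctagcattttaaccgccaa

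The density of HMR peaks differed widely between the windows. Chromosome 4 had 49 induced peaks in 1.35 Mb, or 36.3 per Mb (26.9 to 48.1), against 15.1 per Mb (14.5 to 15.9) on the rest of the major arms, which here includes the pericentromeric parts of 2R and the X. The pericentromeric window of 2L had 25 induced peaks, or 16.5 per Mb (10.7 to 24.4), that of 3L had 46, or 8.83 per Mb (6.46 to 11.8), and that of 3R had 16, or 3.81 per Mb (2.18 to 6.19). On 3L and 3R these densities were below those of the neighbouring stretches of the same length, which had 15.9 per Mb (12.7 to 19.7) and 19.5 per Mb (15.5 to 24.2). On 2L the window and its neighbour, at 11.2 per Mb (6.54 to 18.0), had overlapping intervals. The uninduced densities had the same order, with 28.9 per Mb on chromosome 4, 12.6 on 2L, 6.33 on 3L and 3.33 on 3R, against 10.8 on the rest of the major arms. The density of protein-coding genes falls in that order too, with 59.3, 24.4, 8.06 and 3.33 genes per Mb, while the rest of the major arms has 113. Annotated transposable elements cover 24.8% of chromosome 4, 20.4% of the 2L window, 17.9% of the 3L window and 8.45% of the 3R window, against 4.94% of the rest of the major arms.

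**Figure D1:**
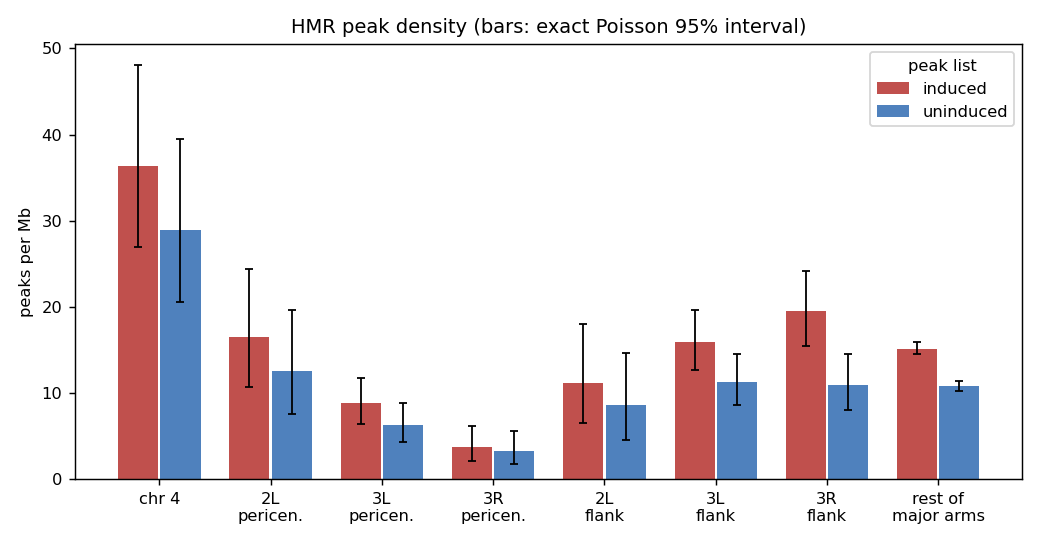
HMR peaks per Mb (vertical axis) in chromosome 4, the 3 pericentromeric windows, the flanking stretches of the same length and the rest of the major arms, for the induced (red) and uninduced (blue) lists, with exact Poisson 95% intervals. Chromosome 4 stands highest at 36.3 and 28.9 per Mb, and the window of 3R lowest at 3.81 and 3.33.

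Counted per gene, the 4 windows had like shares with a peak, well above that of the rest of the major arms. A protein-coding gene was counted when a peak centre lay within 250 bp of any of its TSSs. By this count an induced peak stood at 34 of 80 genes of chromosome 4 (42.5%, 32.3 to 53.4), 17 of 37 in the 2L window (45.9%, 31.0 to 61.6), 19 of 42 in the 3L window (45.2%, 31.2 to 60.1) and 6 of 14 in the 3R window (42.9%, 21.4 to 67.4). Together these were 76 of 173 genes (43.9%, 36.7 to 51.4), against 109 of 1338 genes in the neighbouring stretches (8.15%, 6.80 to 9.73) and 1195 of 13772 on the rest of the major arms (8.68%, 8.22 to 9.16). In the uninduced list 73 of the 173 genes had a peak (42.2%, 35.1 to 49.6), against 823 elsewhere (5.98%, 5.59 to 6.38). When only the most upstream TSS of each gene was used, the induced shares were 37.6% in the windows and 8.04% elsewhere. The windows differ from the rest in other properties, and the share of genes that these cells express was not tested.

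**Figure D2:**
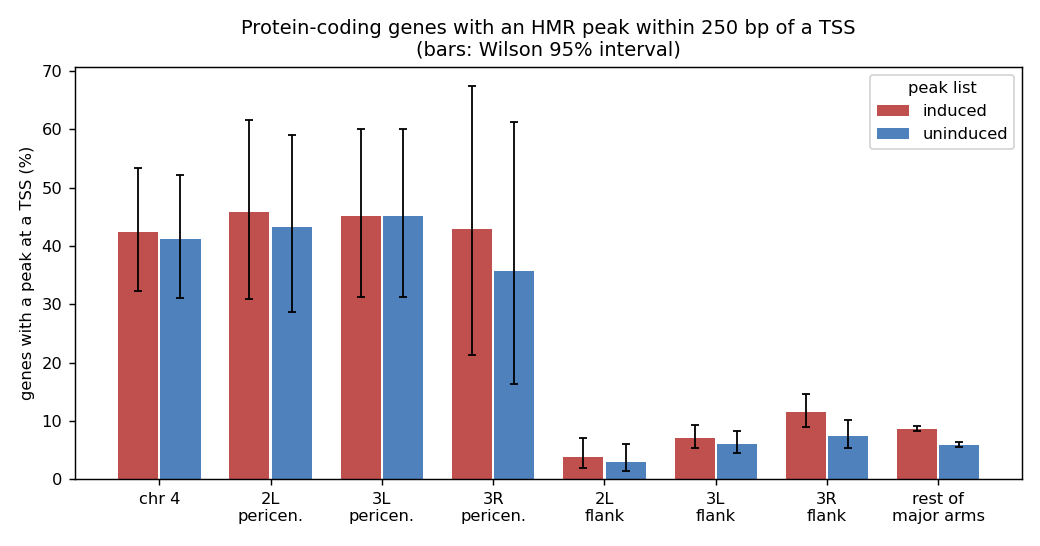
Share of protein-coding genes (percent, vertical axis) with an HMR peak centre within 250 bp of a TSS, by stretch and list, with Wilson 95% intervals. In the induced list the 4 windows lie between 42.5% and 45.9%, and the flanks and the rest of the major arms between 3.81% and 11.5%.

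Several well-studied pericentromeric genes had a shared peak at their TSS, most of them in early lines of both lists. Of 20 pericentromeric gene names set out for description, 18 lie in the windows and 8 of these had a TSS peak in both lists (44.4%), a share like that of all protein-coding genes of the pericentromeric windows (45.2% in the induced and 43.0% in the uninduced list). They are lt (light, a vesicle trafficking protein), cta (concertina, a G protein alpha subunit), RpL15 (a ribosomal protein), Dbp80 (a DEAD-box RNA helicase), vtd (verthandi, the Rad21 subunit of cohesin), Parp1 (the poly(ADP-ribose) polymerase), eIF4B (a translation initiation factor) and Set1 (a histone H3 lysine 4 methyltransferase). The RpL15 peak was at line 5 of the induced and line 3 of the uninduced list, with its centre 85 bp upstream of the TSS and the centres in the lists 1.00 bp apart. Dbp80 was at lines 25 and 22, vtd at 43 and 32, eIF4B at 67 and 43, cta at 94 and 68, Set1 at 169 and 173, and lt at 202 and 196. Parp1 was the latest, at lines 469 and 273. The remaining 10 genes had no TSS peak in either list, and among them Snap25, AGO3, Pzl and Myo81F had peaks elsewhere in the gene.

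The earliest promoter peaks of each pericentromeric window lay at genes of varied functions. On 2L the earliest was at RpL5 (line 8 induced, line 6 uninduced), followed by CG12567 (28 and 35), the non-coding gene lncRNA:CR46450 (46 and 69), Slmap (49 and 67), CG17490 (54 and 39) and Tim23, a subunit of the mitochondrial import machinery (57 and 73). On 3L, RpL15 was followed by MED21, a Mediator subunit (lines 10 and 17), CG40228 (11 and 18), l(3)80Fj (19 and 15), Dbp80, and UQCR-11, a subunit of respiratory complex III (29 and 30). On 3R there were 6 TSS peaks, at Alg-2 (59 and 57), CG41128 (62 and 75), Tim17b, another mitochondrial import protein (74 and 66), CG41099 (284 and 156), Parp1, and the induced-only peak at beta-Man, a beta-mannosidase gene (line 1461). All of these but beta-Man were shared.

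On chromosome 4, 48 of 49 names set out for description lie in the window, and 16 had an induced (33.3%, 21.7 to 47.5) and 16 an uninduced TSS peak, 15 of them in both lists. The interval includes the 42.5% of all 80 protein-coding genes of the chromosome. The 15 included the semaphorin receptors PlexA and PlexB, the ephrin receptor Eph, the kinases CaMKII and Dyrk3, gw (gawky, the GW182 protein of microRNA silencing), the adaptor Crk, the DNA repair factor Rad23, the zinc transporter Zip102B, Hcf, Ank, Arl4, Zyx, Cadps and RpS3A. PlexA was the earliest at line 40 of the induced and line 12 of the uninduced list, with a centre 201 bp upstream. It was followed by anne (65 and 62), 4E-T, an eIF4E-binding protein (79 and 72), Gyf (93 and 71), RpS3A (112 and 70) and CG11076 (113 and 91). ey (eyeless, the eye selector gene) had a TSS peak in the induced list alone, at line 893, and Mitf, a bHLH transcription factor, in the uninduced list alone, at line 716. An early shared peak of chromosome 4 was not at a promoter: at line 7 of the induced list it overlapped sv and Cals with its centre in an annotated 3′ UTR, while its uninduced partner was at line 410 and 181 bp away, the largest offset among the 94 shared peaks.

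Peaks at promoters sat at a narrow distance in front of the TSS. In the induced list 77 of 136 members (56.6%, 48.2 to 64.7) were within 250 bp of a TSS, and 51.6% of all induced peaks on the major arms were. That distance covers 1.41% of the windows' bases and 8.10% of those on the rest of the major arms. Of the 77 centres, 71 lay upstream (92.2%, 84.0 to 96.4), with a median of -74.5 bp on chromosome 4 and -67.5 bp in the pericentromeric windows, against -85.5 bp on the rest of the major arms. The stretch from -120 to -40 bp was not set in advance and lies around the medians of the members, so its shares are a description. It held 52 of the 77 (67.5%, 56.5 to 76.9) and 447 of 943 elsewhere (47.4%, 44.2 to 50.6). In the uninduced list it held 51 of 73 (69.9%, 58.6 to 79.2) and 213 of 618 elsewhere (34.5%, 30.8 to 38.3). A pair of TSSs in opposite directions was near 3 of the 77 induced TSS peaks (3.90%, 1.33 to 10.8) and near 268 of 943 elsewhere (28.4%, 25.6 to 31.4). Genes with an opposite start within 500 bp are also fewer in the windows, at 12.7% of 173 genes against 30.2% of 13772. The peak centre lay between genes for 89 members (65.4%), in an intron for 34 (25.0%), in a 5′ UTR for 8, in a 3′ UTR for 2, in a non-coding exon for 3 and in a coding exon for 0 of 136, which allows a share of up to 2.75% (Wilson).

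**Figure D3:**
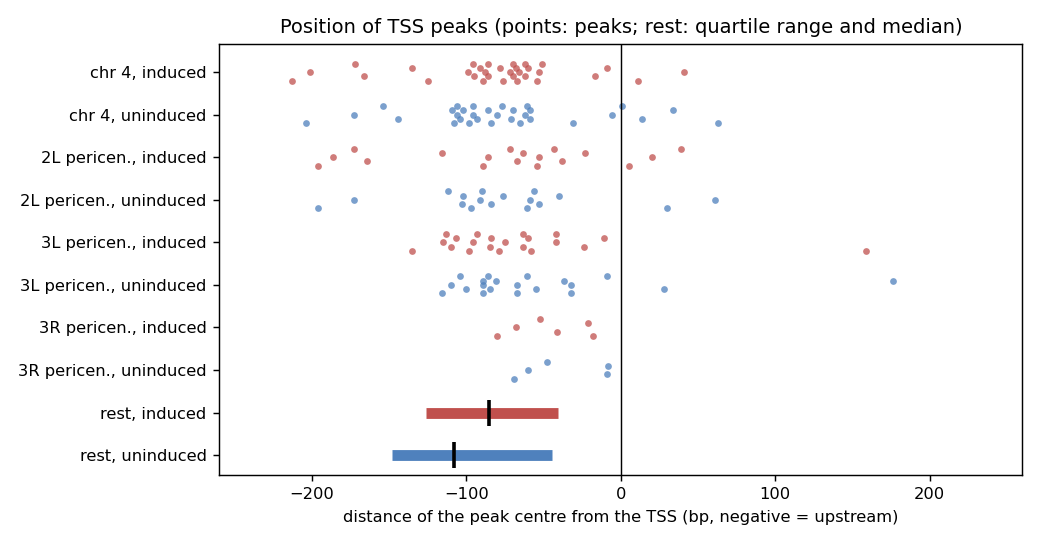
Distance in bp of each TSS peak centre from the TSS (horizontal axis, negative upstream) for the members of each window and list, one point per peak, with the quartile range and median (black mark) of the rest of the major arms below. Most points lie between -120 and -40 bp, and the medians of the rest are -85.5 and -108 bp.

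Over the whole lists, members were shared between the conditions more often than other peaks. Of the 136 induced members 94 overlapped an uninduced peak and 42 did not, an induced-only share of 30.9% (23.7 to 39.1), while 47.2% of all induced peaks and 48.5% (46.2 to 50.8) of those on the rest of the major arms were induced-only. Of the 105 uninduced members 11 had no induced counterpart (10.5%, 5.95 to 17.8), against 26.6% of all uninduced peaks. The induced-only share was 28.0% on 2L (7 of 25), 34.8% on 3L (16 of 46), 43.8% on 3R (7 of 16) and 24.5% on chromosome 4 (12 of 49), with intervals that all overlapped. Shared members paired singly, and their centres were a median of 16.5 bp apart, against 30.0 bp elsewhere. The neighbouring stretches had an induced-only share of 47.3% (40.1 to 54.5).

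Members also stood early in the lists. The lists are not sorted by position, and the sources do not say what their order stands for. The first 198 lines of the induced list held 56 of the 136 members (41.2%, 33.3 to 49.6) but 7.71% (6.58 to 9.02) of the peaks on the rest of the major arms. In the uninduced list the first 142 lines held 50 of 105 members (47.6%, 38.3 to 57.1) against 6.99% (5.73 to 8.50). The median line of the shared members was 165 of 1981 in the induced list, and that of the induced-only members was 1088. Shared pericentromeric members had a median line of 92.0, and induced-only ones of 1340. Of the shared members 57.4% (47.4 to 67.0) were in the first 198 lines, against 4.76% (1.32 to 15.8) of the induced-only members. The share of unshared peaks followed the order of lines. In the first 990 lines 20 of 109 members were induced-only (18.3%, 12.2 to 26.6), against 32.2% (29.2 to 35.4) elsewhere, but in the later lines 22 of 27 members were (81.5%, 63.3 to 91.8), against 63.3% (60.3 to 66.3). The lower induced-only share of the windows was thus seen in the first 990 lines and not in the later ones. Members crowd in the first 198 lines, where 2 of 56 members were induced-only (3.57%, 0.985 to 12.1), against 11.3% (7.06 to 17.5) elsewhere. These intervals overlap. The contrast within the first 990 lines is therefore not one between peaks at like lines.

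**Figure D4:**
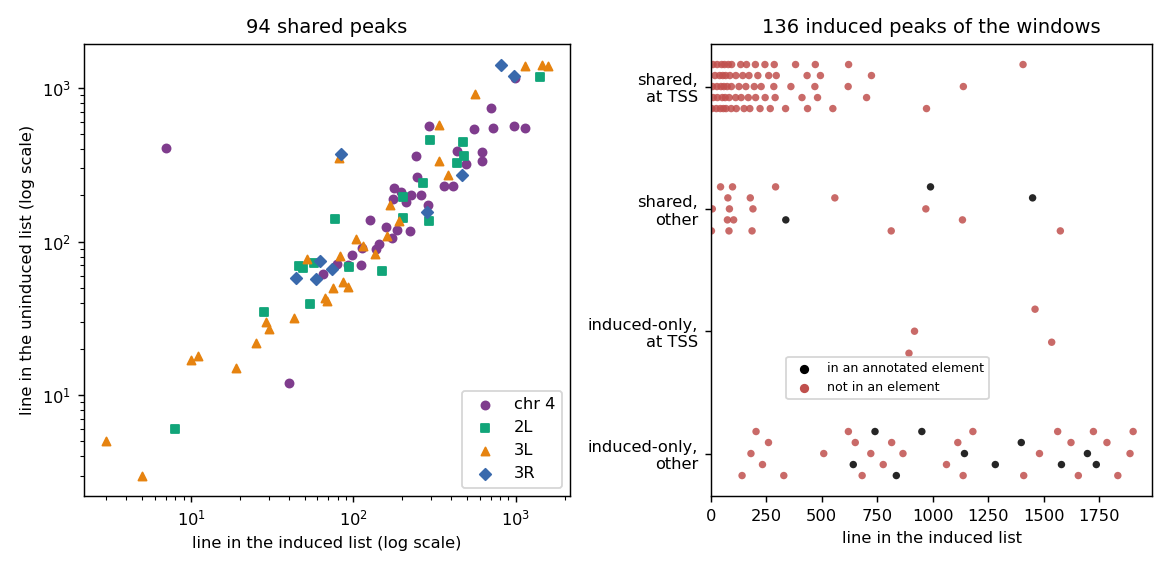
Left, line numbers of the 94 shared peaks in the induced (horizontal) and uninduced (vertical) lists on log axes, by window. Right, line in the induced list of the 136 induced members by class and by whether they are at a TSS, with peaks in an annotated transposable element in black, where the shared TSS peaks crowd at the early lines and the induced-only peaks spread to line 1903.

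The classes differed in where their peaks lay. Of the 94 shared members 73 were at a TSS (77.7%, 68.2 to 84.9), and of the 42 induced-only members 4 were (9.52%, 3.77 to 22.1), a difference of 68.1 percentage points (52.5 to 77.4, Newcombe interval). In the pericentromeric windows alone these were 42 of 57 (73.7%) and 3 of 30 (10.0%). On the rest of the major arms the shares were 48.3% (45.1 to 51.4) and 54.3% (51.0 to 57.6). Bases within 250 bp of a TSS make up 1.41% of the windows and 8.10% of the rest of the major arms. The TSS shares of peaks in the windows and elsewhere thus stand beside unlike shares of bases. Since line order differs between the classes, the shares were also taken within parts of the induced list. In its first 990 lines 71 of 89 shared (79.8%, 70.3 to 86.8) and 2 of 20 induced-only members (10.0%, 2.79 to 30.1) were at a TSS, while elsewhere in the same lines the shares were 47.0% and 47.7%. In the later lines the members were 2 of 5 shared and 2 of 22 induced-only, too few shared peaks for a comparison. In the uninduced list 1 of 11 uninduced-only members was at a TSS (9.09%, 1.62 to 37.7).

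**Figure D5:**
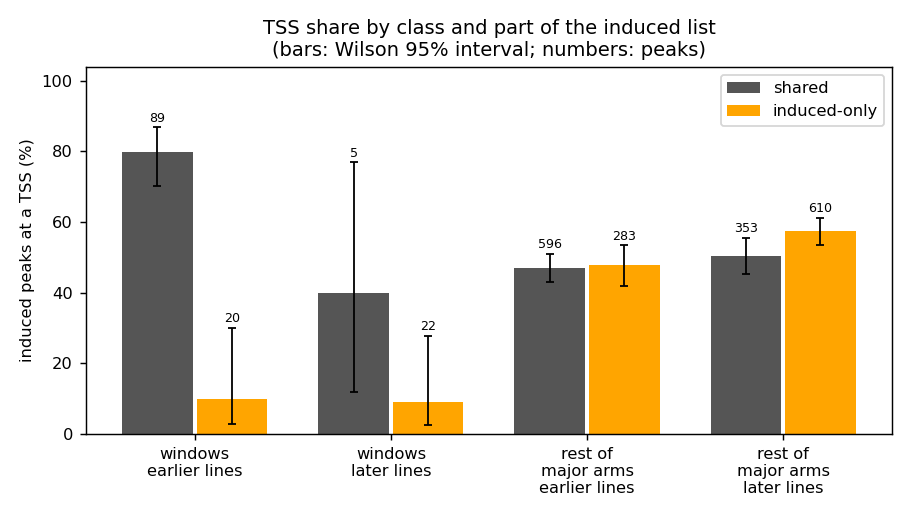
Share of induced peaks within 250 bp of a TSS (percent, vertical axis) for shared (grey) and induced-only (yellow) peaks in the windows and on the rest of the major arms, in the earlier and later lines of the induced list, with Wilson 95% intervals and the number of peaks above. In the earlier lines the windows show 79.8% against 10.0%, and the rest 47.0% against 47.7%.

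The 4 induced-only promoter peaks were at ey on chromosome 4 (86 bp upstream), Marf1 on 2L (164 bp upstream of a TSS inside the gene, line 918), a gene whose mouse counterpart regulates meiosis, the non-coding gene lncRNA:CR43967 on 3L (line 1536) and beta-Man on 3R. All 4 held CGATA and 3 held TATCGATA. The shares among all TSS peaks are given with the motif counts below, and 4 peaks are too few for a comparison. The ey promoter had a further induced-only peak 723 bp upstream, the closest pair among the induced members, with centres 637 bp apart. With distances taken from the nearest TSS, the other induced-only peaks of chromosome 4 lay in introns of pan (line 181) and Cadps (line 509), in an intron and a 3′ UTR of mGluR, a glutamate receptor (lines 777 and 620), 1201 bp upstream of Asator (line 204), 696 bp upstream of Sox102F (line 651), 6287 bp from mir-9385 (line 141), 1336 bp from lncRNA:CR43437 (line 1137), and in jockey (line 740) and TART-C (line 1580) elements. On 2L they lay in an intron of CG3635, in gypsy8 and gypsy12 elements, 4567 bp upstream and 12022 bp downstream of the TSS of Slmap, and 5949 bp from that of CG6675. The 8 earliest on 3L lay in an intron of UQCR-11 (line 260), 5427 bp from CG32457 (line 329), in a G5 element within nAChRalpha4 (line 642), 11010 bp from RpL15 (line 721), in an R1 element (line 951), in an intron of Snap25 (line 1113), 56639 bp from lncRNA:CR46250 (line 1181) and where a Cr1a and a Stalker4 copy adjoin (line 1282).

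Of the 10 protein-coding genes of at least 100000 bp in the windows, a length chosen after the values were seen, 4 held an unshared peak, 4 held a shared peak alone and 2 held none. Myo81F, a myosin gene that spans 1965857 bp of the 3R window, held 5 induced and 3 uninduced peaks in introns, of which 0 were shared, and its induced peaks stood between lines 1062 and 1903. Pzl, next to it, held 2 induced peaks, 1 of them shared. AGO3, an Argonaute of the piRNA pathway with 135048 bp on 3L, held 3 induced peaks, 1 of them shared, and 2 uninduced peaks. Snap25, a synaptic vesicle fusion protein gene of 225026 bp, held 2 induced-only peaks. The genes lovit (434041 bp), l(3)80Fg (215672 bp), Dbp80 (142844 bp) and Parp1 (125704 bp) held 1 shared peak each, and CG40470 (146551 bp) and CG40006 (133933 bp) held none. On 3R, 8 of the 9 shared peaks and 13 of the 14 protein-coding genes lay in the 1.00 Mb nearest the border with the arm, while the remaining window held 7 induced peaks. On 3L shared peaks were found in every 1.00 Mb stretch, with 11 of 18 induced peaks shared in the stretch nearest the border and then, going inwards, 2 of 4, 6 of 8, 3 of 3, 6 of 9 and, in the last 0.210 Mb, 2 of 4. In the same order an induced TSS peak stood at 7 of 19, 1 of 6, 4 of 7, 1 of 4, 5 of 5 and 1 of 1 protein-coding genes.

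The 11 uninduced-only members stood between lines 512 and 1412 of the 1424 in their list. Chromosome 4 had 2, at the Mitf promoter and in a HeT-A copy. On 2L there was 1, 19464 bp from Slmap. On 3L there were 3, in an intron of AGO3, in a Quasimodo copy that also holds a 1360 copy, and 5940 bp from CG40045. On 3R there were 5, the 3 in Myo81F, 1 that lay 824 bp upstream of CG41099 with its centre 764 bp from a shared peak, and 1 more 101163 bp from that gene.

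Annotated transposable elements held few peaks. In the induced list 13 of 136 members overlapped an element by at least 1 bp (9.56%, 5.67 to 15.7), and 2.78% of all induced peaks on the major arms did. Elements cover 15.7% of the windows' bases, which is a share of single bases and not of 200 bp intervals. The peak centre lay inside an element for 8.82% of induced members (5.12 to 14.8), below that share of bases. The share that overlapped an element was 3.19% of shared members (3 of 94, 1.09 to 8.97) and 23.8% of induced-only members (10 of 42, 13.5 to 38.5). On the rest of the major arms it was 2.74% and 1.79%. All 13 induced members in an element lay away from a TSS, while 73 of 94 shared but 4 of 42 induced-only members were at a TSS. The element shares of the classes are thus not shares of like sites, and they were not taken for members away from a TSS alone. By window the element share was 8 of 46 on 3L, 3 of 49 on chromosome 4, 2 of 25 on 2L and 0 of 16 on 3R, where a Wilson interval reaches 19.4%. In the uninduced list 7 of 105 members overlapped an element (6.67%, 3.27 to 13.1). Only uniquely mapped reads entered the peak calls, so repeated copies cannot be read fully, and the part of this in the counts was not tested.

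Of 131 element families with 1660 copies in the windows, 17 had a peak. Families overlapped by at least 2 peaks in a list were Cr1a (2 induced, 1 uninduced), the LTR element Stalker4 (2 and 1), the telomeric retrotransposon HeT-A (1 and 2) and the P-like DNA element 1360 (0 and 2). The 1360 overlaps were of 45 and 48 bp, with the peak centres outside the copies. A single induced peak counted for both Cr1a (83 bp) and Stalker4 (73 bp), with its centre outside both. The other induced Stalker4 peak also lay inside a GATE copy. The shared HeT-A peak lay at chr4:1318201-1318400, inside a copy of 5799 bp. INE-1, with 620 copies, had 0 induced peaks and 1 uninduced peak that overlapped a copy by 23 bp. The single R1 copy of the windows, a retrotransposon of ribosomal RNA genes, held an induced-only peak, as did the single TART-C copy. F, G5, HMS-Beagle, gypsy8, gypsy12, jockey and rover had 1 induced-only peak each.

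Exact motif matches were counted in promoter peaks and in peaks away from promoters. CGATA was present in 42 of 77 induced TSS members (54.5%, 43.5 to 65.2) and in 47.4% (44.2 to 50.6) of TSS peaks on the rest of the major arms, against 23.5% of the 60559 consecutive 200 bp stretches of the windows. Over all induced members, which include those away from a TSS, CGATA was present in 42.6% (34.6 to 51.0). TATCGATA was present in 10 of 77 (interval 7.21 to 22.3%), against 9.54% (7.83 to 11.6) elsewhere and 0.905% of the stretches. GGTCACACT, the core of the promoter element Motif 1, was present in 2 of 77 (2.60%, 0.715 to 8.98), against 7.64% (6.11 to 9.51) elsewhere and 0.137% of the stretches. GAGAG, bound by GAGA factor, was present in 15.6% (9.15 to 25.3), against 16.4% (14.2 to 18.9) elsewhere and 21.8% of the stretches. For each of these 4 motifs the intervals of the windows and of the rest overlapped. The 200 bp stretches run over the whole windows and are not promoters alone. They therefore do not tell HMR peaks apart from promoters in general. Among the 59 members away from a TSS, TGCATANTT, a core of the Su(Hw) insulator site, was present in 5 (8.47%, 3.67 to 18.4), against 17.5% (15.1 to 20.1) elsewhere and 1.41% of the stretches. Matches were exact and on either strand, and a match describes letters and not a bound site. The median GC content of the TSS members was 32.5%, against 37.5% of TSS peaks elsewhere, with a base composition of 39.2% in the windows and 42.4% on the rest of the major arms.

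TGCATAC, chosen after the peak sequences were seen and overlapping the Su(Hw) core in its first letters, was present in 9 of 136 induced members (6.62%, 3.52 to 12.1), against 10.5% (9.21 to 12.0) elsewhere and 2.58% of the stretches. At least 3 copies within a peak were found in 2 of 136 induced members and in 3 of 1842 induced peaks elsewhere. The 2 members are the 3L peaks printed first above. The one near the assembled end of 3L was at line 3 of the induced and line 5 of the uninduced list, 78747 bp from the nearest TSS, and the other was at lines 82 and 353.

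The spacing of peaks differed between the windows. The median gap between neighbouring induced centres was 21886 bp on chromosome 4, 17045 bp on 2L, 63816 bp on 3L and 111759 bp on 3R. After the pair at ey, the closest induced pairs were at Zip102B and Rnf11 (885 bp apart), at the MED26 promoter and inside MED26 (905 bp), at and within UQCR-11 (926 bp), and at and upstream of eIF4B (1005 bp). In the Zip102B and Rnf11 pair, and in the pairs at MED26 and eIF4B, both peaks were shared, whereas the second peak at UQCR-11 was induced-only.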

How the data were processed

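Chromatin of SL2 cells was precipitated with a rat anti-HMR antibody and sequenced beside input. The authors aligned 50 bp reads to dm6 with Bowtie2 2.2.9, kept unique reads with SAMtools 1.3.1, and used HOMER 4.9 to find peaks that exceed input by at least 2-fold. The deposited values are peak positions alone. Whether the induced libraries were pooled is not given in the sources used here.

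Overlaps (at least 1 bp), TSS distances (centre within 250 bp, Ensembl release 115), element overlaps and exact motif matches in the RefSeq sequence of Release 6 (dm6) were obtained with scripts in Python 3.11.15 (numpy 2.4.6, scipy 1.17.1, matplotlib 3.10.9 for plots). Code was tested on simulated lists. Both lists were used whole, and 3 Y peaks in each entered the totals only.

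Members and gene lists were chosen with earlier results of these data known. Named are listed genes with TSS peaks, the 6 earliest TSS genes per window, genes at unshared peaks (all where 15 or fewer in a window, otherwise the 8 earliest), element families with at least 2 peaks in a list and the 5 closest pairs. Others were named after their values were seen. None of the 20 insulator, heterochromatin and HMR complex genes listed lies in the windows.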

Additional observations from a re-analysis of the deposited data

How the results depend on the processing

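Of 75 values under other settings for 22 results, 59 stayed within the counting interval of the reported value, 16 moved out of it and 0 reversed. A reversal means a change of sign, which densities and shares cannot have. Only the difference in TSS share between the classes could thus have reversed. No setting brought the TSS share of shared members below that of induced-only members (differences of 56.9 to 70.3 percentage points). With the earlier 990 induced and 712 uninduced lines alone, fewer peaks were compared: the induced density was 6.14 per Mb on 3L and 2.14 on 3R, the induced-only share 22.94%, the uninduced-only share 3.45%, the TSS share 67.0% in the induced and 80.5% in the uninduced list, and the element share of induced members 5.50%. With a TSS distance of 100 bp the TSS share was 44.1% (induced) and 50.5% (uninduced), and 35.3% of the genes in the windows and 4.26% of those on the rest of the major arms had an induced peak. For genes on the rest of the major arms the share was 10.9% within 500 bp, 3.72% in the earlier 990 lines and 8.04% with the most upstream TSS alone. Under these settings the share in the windows stayed between 37.6% and 46.2%. With the borders moved 0.5 Mb towards the centromere it was 46.5%. Within 400 bp around the peak centre CGATA was present in 58.8% and GAGAG in 25.0% of induced members. The gene share settings, and the class difference in the earlier lines, were chosen after seeing the data. Read depth is not given with the peaks, so what it limits cannot be measured. No paired analysis was possible because the lists hold no values of single replicates, which also means that no replicate could be left out.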

Other observations

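The ribosomal protein genes of the windows were picked out after their peaks were seen, so their count is a description. RpL10, RpL15, RpL21, RpL5 and RpS3A, 5 of 5 genes, had an HMR peak at the TSS in each list (100%, 56.6 to 100), beside 76 of all 173 protein-coding genes of the windows in the induced list (43.9%). On the rest of the major arms 37 of 81 ribosomal protein genes had an induced peak (45.7%, 35.3 to 56.5) and 24 an uninduced peak (29.6%, 20.8 to 40.3), beside 8.68% and 5.98% of all protein-coding genes there. The 5 genes lie in 3 of the windows, on 2L, 3L and chromosome 4.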
